A study of Homo sapiens with 2 samples.

Results

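The SLC25A genes encode the mitochondrial carriers, and 40 of the 48 protein-coding genes with such a symbol in the annotation had at least 1 RNA peak in either of 2 libraries from HEK293T cells. Members were all peaks listed under an Ensembl gene that GENCODE 29 names SLC25A and types as protein-coding. They came to 246 of 100792 peak entries in replicate 1 and 276 of 109413 in replicate 2. Of the 20048 genes with a peak in either list, 13209 were protein-coding, out of 19951 protein-coding genes in the annotation.

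HEK293T is an established human embryonic kidney cell line. Both libraries belonged to 1 group, called TRACER in the labels, which do not say what the word stands for. All cells had been given doxycycline at 3 ug/mL for 24 hours, a drug often used to switch on an introduced gene, and the labels name no such gene. Cytoplasmic RNA was extracted with Trizol and made into libraries with a Qiagen microRNA protocol, with the stated purpose of finding RNA stretches in cis that associate with CCR4-NOT. No untreated, input or control library was analysed here, so the values describe where peaks lay and carry no comparison between conditions. Nothing in the labels ties the replicates to separate cultures, and the spread between them may only be technical.

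CCR4-NOT is the main cytoplasmic complex that shortens the poly(A) tails of mRNAs, and proteins that bind elements in the 3′ untranslated region (3′ UTR) recruit it to particular transcripts. Mitochondrial carriers are proteins of the inner mitochondrial membrane, built of similar repeats, each of which holds a signature motif that begins with proline. They move nucleotides, phosphate, metabolites, amino acids, cofactors and iron across that membrane. They are encoded in the nucleus, made in the cytosol, and imported through the TOM complex, small chaperones and the TIM22 complex.

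A peak is a stretch that the authors' caller scored as enriched in reads, and its summit is the position the caller marked as highest. Reads in peaks are whole numbers that were not normalised. No measurement of total RNA was analysed here, so a gene's reads also follow how much of its mRNA was present, and abundance cannot be told apart from association. Peak reads over the whole lists came to 1585451 in replicate 1 and 1663904 in replicate 2, and these are sums over peaks rather than sequencing depth. Of the 9 markers listed for HEK293T cells, 8 had a peak found in both libraries, beside 50.5% of all protein-coding genes in the annotation. Among the 8, LHX1 had only 3 reads in replicate 1 and 4 in replicate 2. The count was 0 of 3 for liver markers, 0 of 4 for blood markers and 2 of 3 for muscle markers (ACTA1 and CKM).

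The carriers took 2295 peak reads in replicate 1 and 2544 in replicate 2, or 0.252% and 0.248% of the peak reads of protein-coding genes. A peak was counted as found in both libraries when it shared at least 1 nt on the same strand with a peak of the other library under the same gene. By that rule 33 of 48 carriers, or 68.8% (exact 95% binomial interval 53.8 to 81.3), had a peak found in both libraries, beside 50.5% of all protein-coding genes in the annotation. In the coding sequence (CDS) the count was 20 carriers, or 41.7% (27.6 to 56.8), beside 37% of all protein-coding genes. In the 3′ UTR it was 21 carriers, or 43.8% (29.5 to 58.8), beside 28.5%. Carriers were not matched to other genes on abundance, so these shares are descriptions.

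Single carrier peaks recurred at rates near those of other genes. Of the carrier peaks, 57.3% in replicate 1 (exact 95% binomial interval 50.9 to 63.6) and 52.9% in replicate 2 (46.8 to 58.9) were found in both libraries, beside 59.1% and 54.2% over all protein-coding genes. Recurrence went with the number of reads in a peak. Among carrier peaks of 3 to 4 reads, 35.8% and 28.2% were found in both libraries, among those of 5 to 9 reads 57.0% and 56.7%, and among those of 10 reads or more 93.1% and 87.0%. These intervals cover counting error only.

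The 8 members with no peak in either list were SLC25A2, SLC25A18, SLC25A31, SLC25A34, SLC25A45, SLC25A47, SLC25A48 and SLC25A52. SLC25A31 encodes an ADP/ATP carrier known mainly from the testis. SLC25A41 had a peak in replicate 1 alone, with 7 reads, and SLC25A27 and SLC25A42 in replicate 2 alone, with 3 and 10 reads. A missing entry says that no peak was called, not that the mRNA was absent.

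**Figure D1:**
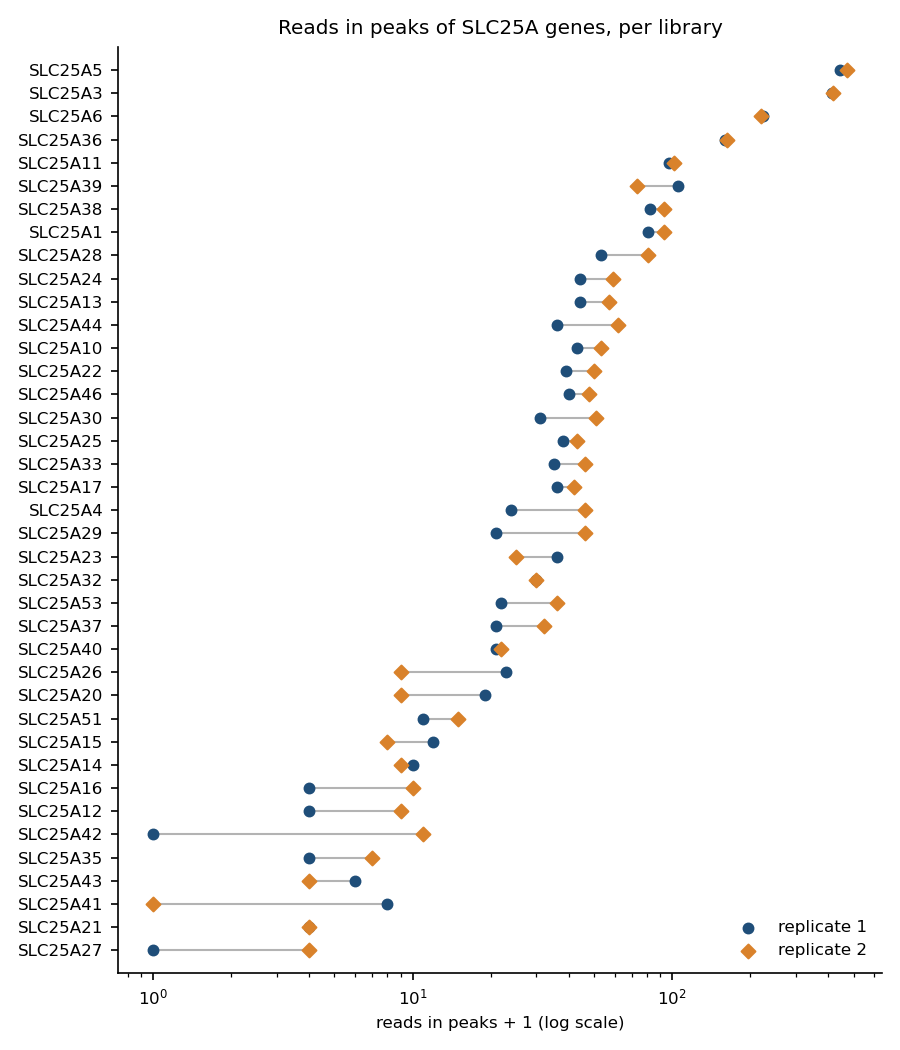
Reads in peaks plus 1, on a log axis, for 39 of the 40 carriers with a peak, ordered by their mean; circles are replicate 1 and diamonds replicate 2. SLC25A5, SLC25A3 and SLC25A6 stand at the top with at least 219 reads in each library, and the gaps between the libraries widen among genes with few reads.

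The reads were concentrated in a few carriers. SLC25A5, SLC25A3 and SLC25A6 together held 46.9% of the carriers' reads in replicate 1 and 43.5% in replicate 2. The libraries ordered the genes alike, with a Pearson r of 0.94 and a Spearman rho of 0.95 across the 48 members on log2(reads + 1), as a description across genes. The 48 include the 8 members with no peak in either library, and the values were not computed without them. By substrate, the ADP/ATP carriers held 29.9% and 28.9% of the carriers' reads, the phosphate carrier 18% and 16.3%, the amino acid carriers 10.1% and 12.5%, and the carriers of citrate, dicarboxylates and oxo acids 9.63% and 9.75%. The amino acid carriers had 5 CDS and 12 3′ UTR regions found in both libraries, where a region is a merged stretch of overlapping peaks, and the carriers of citrate, dicarboxylates and oxo acids had 13 and 4. The median carrier had 1.17 times as many reads in replicate 2 as in replicate 1, and no carrier with at least 30 reads in 1 library differed by over 3-fold between them.

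The ADP/ATP carriers exchange cytosolic ADP for mitochondrial ATP. SLC25A5 (ENSG00000005022, chrX:119468400-119471319), the form of growing cells, had 442 reads in replicate 1 and 472 in replicate 2. Per length of its representative transcript this was 359 ± 16.7 reads per kb (SD, n = 2), the highest level of the family. All of these reads lay in the CDS, in both libraries. SLC25A6 (ENSG00000169100, chrX:1386152-1392724), its widely expressed relative in the pseudoautosomal region, had 222 and 219 reads, or 107 ± 1.03 reads per kb. In SLC25A6 the CDS held 82.9% and 86.8% of reads, and the rest lay in 3′ UTR peaks that did not overlap between the libraries. SLC25A4 (ENSG00000151729, chr4:185143241-185150382), the form of heart and muscle, had 23 and 45 reads, or 7.66 ± 3.50 reads per kb, and 87.0% and 84.4% of them lay in the CDS. The 3 genes had 18 CDS regions and 0 3′ UTR regions found in both libraries.

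These 3 genes have coding sequences of the same length, 897 nt, that align without a gap. SLC25A5 and SLC25A6 are identical at 78.8% of the bases, and SLC25A4 is identical to them at 77.3% and 77.9%. Peaks of both libraries covered 258 nt of the SLC25A5 CDS, or 28.8%, and 188 nt of the SLC25A6 CDS, or 21.0%. They shared 141 aligned nt in 7 stretches, which was 54.7% of the covered part of SLC25A5 and 75.0% of that of SLC25A6. SLC25A4 had 84 covered nt, of which 59 lay on covered bases of SLC25A5, and 55 nt were covered in all 3 genes. This trio was compared after the values had been seen, so the overlap is a description without a test.

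Of the 7 stretches, 4 are shown to let the covered bases of both genes be compared. Each is read in the sense of the mRNA, and capitals mark the bases at which the genes differ. SLC25A5 lies on the plus strand and SLC25A6 on the minus strand of chromosome X (GRCh38).
SLC25A5, CDS 296 to 320, chrX:119469845-119469869: tcctgggTggTgtggacaagAGAac
SLC25A6, CDS 296 to 320, chrX:1389519-1389543: tcctgggGggCgtggacaagCACac
SLC25A5, CDS 411 to 445, chrX:119469960-119469994: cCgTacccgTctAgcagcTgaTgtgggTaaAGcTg
SLC25A6, CDS 411 to 445, chrX:1389394-1389428: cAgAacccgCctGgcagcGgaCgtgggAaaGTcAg
SLC25A5, CDS 720 to 739, chrX:119470494-119470513: gcagtcAgggcgcaaaggaA
SLC25A6, CDS 720 to 739, chrX:1387279-1387298: gcagtcCgggcgcaaaggaG
SLC25A5, CDS 765 to 788, chrX:119470926-119470949: TgactgCtggCggaagatTGCTCg
SLC25A6, CDS 765 to 788, chrX:1386711-1386734: CgactgTtggAggaagatCTTCAg

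The stretch at 411 to 445 lay under an SLC25A5 peak of 60 reads in replicate 1 and 93 in replicate 2. That peak had the most reads of SLC25A5 in replicate 2, and another led in replicate 1 with 61. In SLC25A6 the stretch lay under a peak of 29 and 33 reads. The one at 765 to 788 lay under the strongest SLC25A6 peak, with 41 and 46 reads, and under a peak of 56 and 45 reads in SLC25A5. In the stretch at 411 to 445 the genes were identical at 25 of 35 bases, and the longest run without a difference was 5 nt. The longest such run in any of the 7 stretches was 14 nt, in one that is not shown. Over the 141 shared nt the genes were identical at 78.0% of bases, close to the 78.8% of the whole CDS. Copies elsewhere bear on the SLC25A5 values. Of the 27-nt words of its CDS, 45.1% also occurred in transcripts of other genes, mostly processed pseudogenes, against 8.04% for SLC25A6.

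**Figure D2:**
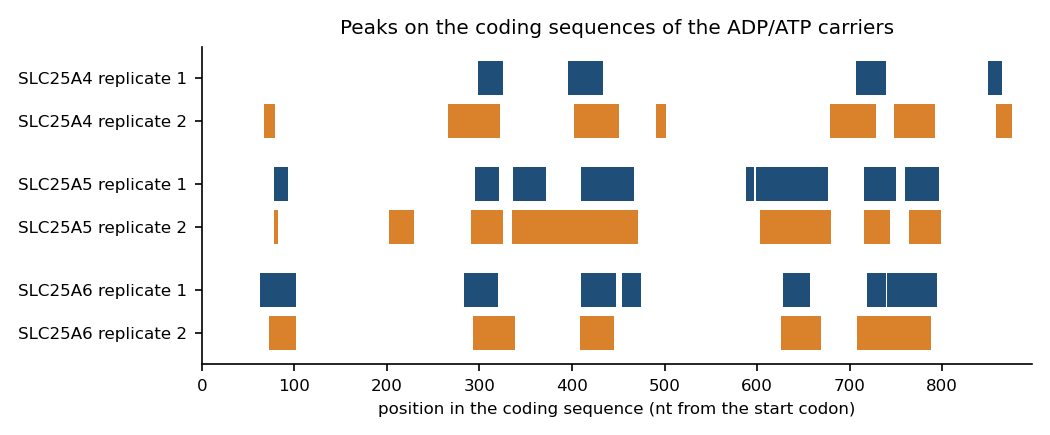
Peaks on the aligned 897-nt coding sequences of SLC25A4, SLC25A5 and SLC25A6, with position from the start codon on the x axis; blue bars are peaks of replicate 1 and orange bars peaks of replicate 2. Bars of SLC25A5 and SLC25A6 fall together in both libraries at 296 to 320, 411 to 445, 720 to 739 and 765 to 788 nt. SLC25A4 has fewer stretches and fewer bases covered in both libraries.

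SLC25A3 (ENSG00000075415, chr12:98593591-98606379) encodes the carrier that brings phosphate into the matrix for ATP synthesis. It had 412 reads in replicate 1 and 415 in replicate 2, or 246 ± 1.26 reads per kb, the second highest level. The CDS held 65.3% and 69.6% of them. It had 13 CDS regions found in both libraries. Its gene holds 2 versions of the third exon, one of which is used mainly in heart and muscle and the other in most tissues. The upstream one, chr12:98595433-98595557 and 125 nt long, had 0 peaks in either library. The downstream one, chr12:98595727-98595848 and 122 nt long, had 3 peaks in each library with 60 and 65 reads, and 93.4% of its bases lay under peaks of both. The libraries gave the same picture, with a strongest peak of 31 reads in each. With the transcript that holds the 125-nt exon, 42.4% of the SLC25A3 CDS lay under peaks of both libraries, and with the one that holds the 122-nt exon 53.0%. The bases around the summit of the strongest peak in the 122-nt exon are shown because they lie within that exon, with the summit in capitals.
SLC25A3, 122-nt exon, plus strand, chr12:98595747-98595797: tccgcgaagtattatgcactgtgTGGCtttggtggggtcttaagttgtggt

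SLC25A3 also had regions with 5′ UTR summits on both sides of its first intron, one with 22 and 19 reads and one with 19 and 33 reads. The latter had its summit just before the start codon and ran on into the CDS. A further pair of regions, one intronic with 27 and 23 reads and one in a non-coding exon with 13 and 9 reads, lay on SNORA53, a small nucleolar RNA gene within SLC25A3 on the same strand. Its single 3′ UTR region, chr12:98601526-98601651, had 54 and 29 reads and a summit 17 nt after the stop codon.

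Outside these leading genes, SLC25A11, SLC25A1, SLC25A13 and SLC25A28 also had most of their reads in the CDS in both libraries. SLC25A11, which exchanges oxoglutarate for malate, had 96 and 101 reads, with 63.5% and 91.1% in the CDS. SLC25A1, which exports citrate for fatty acid synthesis, had 80 and 92 reads, with 75.0% and 91.3% in the CDS. SLC25A10, which carries dicarboxylates such as malate and succinate, had 42 and 52 reads, with 50% and 46.2% in the CDS. Of the 27-nt words in the SLC25A10 CDS, 87.6% also occur in AC139530.2, a protein-coding entry that overlaps it on the same strand. SLC25A13, an aspartate/glutamate carrier of the malate-aspartate shuttle, had 43 and 56 reads, and 100% and 80.4% of them lay in the CDS. SLC25A28, a mitoferrin that carries iron, had 52 and 80 reads, with 78.9% and 86.3% in the CDS. In SLC25A11, SLC25A1 and SLC25A13 the libraries lay well apart, so the shares of single genes are known only roughly.

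Other carriers had most of their reads in the 3′ UTR. Of 27 members with at least 10 reads in each library, 8 had over 50% of reads in the 3′ UTR in both libraries, or 29.6%, beside 16.0% of 8890 such protein-coding genes. With 27 genes the carriers' share is known only roughly, and its difference from other genes was not tested. The share was 30.4% among 112 such SLC genes outside the family, near that of the carriers. It was 3.85% among 78 mitochondrial ribosomal genes and 2.22% among 45 complex I (NDUF) genes. The 8 carriers were SLC25A22, SLC25A29, SLC25A30, SLC25A36, SLC25A37, SLC25A38, SLC25A40 and SLC25A44. Another 10 members, or 37.0%, had over 50% in the CDS in both libraries, beside 45.5% of protein-coding genes. For the other SLC, ribosomal and NDUF genes that share was 21.4%, 79.5% and 84.4%. The highest 3′ UTR shares belonged to SLC25A40, a mitochondrial glutathione carrier, with 85.0% and 85.7% of 20 and 21 reads. SLC25A29, a carrier of basic amino acids, had 80.0% and 75.6% of 20 and 45 reads in the 3′ UTR. SLC25A22, a glutamate carrier, had 68.4% and 77.6% of 38 and 49 reads. SLC25A30, a relative of the uncoupling proteins, had 73.3% and 70.0% of 30 and 50 reads. SLC25A37, the mitoferrin of red cell precursors, had 85.0% and 51.6% of 20 and 31 reads, the widest gap between the libraries among the 27 members.

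**Figure D3:**
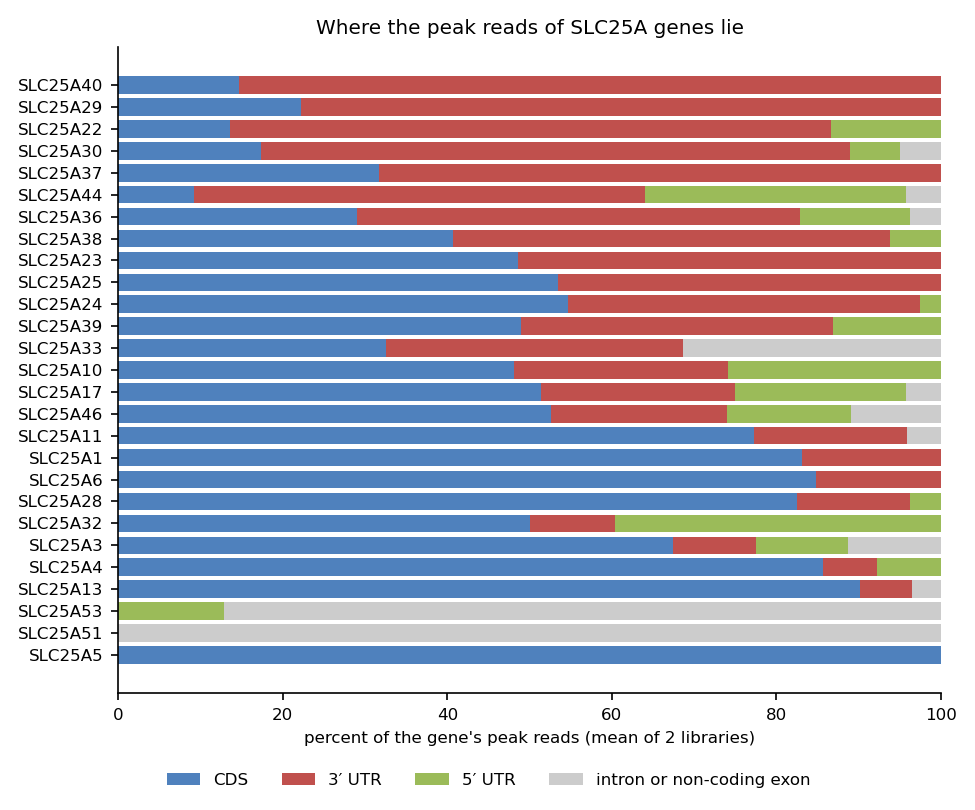
Share of each gene's peak reads in the CDS, 3′ UTR, 5′ UTR and in introns or non-coding exons, as the mean of 2 libraries, for the 27 carriers with at least 10 reads in each library. The genes run in order of the 3′ UTR share, with SLC25A40 at the top and SLC25A5, whose reads all lay in the CDS, at the bottom.

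SLC25A36 (ENSG00000114120, chr3:140941830-140980961), which carries pyrimidine nucleotides, came next by reads after the 3 leading genes and held the 3′ UTR region with the most reads on average. It had 159 and 162 reads, with 57.2% and 50.6% in the 3′ UTR and 30.2% and 27.8% in the CDS. Its leading region, chr3:140979821-140979907 on the plus strand, had 42 reads in replicate 1 and 46 in replicate 2. The summit lay 3393 nt after the stop codon and 87 nt before the end of the transcript. It is shown because it carries a doubled motif, marked in capitals.
SLC25A36, 3′ UTR, plus strand, chr3:140979832-140979860: tttaTGTACATggcTGTAAATtatgtgca

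The capitals mark both matches to TGTANAT in the sense of the mRNA, at bases 5 to 11 and 15 to 21 of the 29 shown. These are the first 7 letters of TGTANATA, the element bound by Pumilio proteins, which are known to recruit CCR4-NOT, but neither match is followed by the A of the full element. Of 40 carrier peaks in the 3′ UTR that replicate 1 shared with replicate 2, this one alone held a TGTANAT in the 29 nt around its summit. In other protein-coding genes 1197 of 11290 such peaks, or 10.6%, held at least 1 match, and 53, or 0.469%, held 2 or more. The 7-letter search was added after this window had been seen. A match is a string of letters, not a measured binding site.

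The full element TGTANATA occurred 11 times in the 3′ UTRs of 9 carriers with a peak, counting 1 representative transcript per gene and the sense strand. Peaks of both libraries covered 0 of these 11 (exact 95% binomial interval 0 to 28.5%), beside 753 of 5718, or 13.2%, in protein-coding genes with a peak. One element in SLC25A44 and one in SLC25A32 lay under a peak of replicate 1 alone. With 11 elements a share as high as in other genes lies inside the interval. The AU-rich pentamer ATTTA lay under peaks of both libraries at 5 of 165 places, or 3.03% (0.991 to 6.93), beside 1.16% in protein-coding genes. All 5 were in SLC25A24, SLC25A25 and SLC25A36. Peaks of both libraries covered 1.81% of all 3′ UTR bases of these carriers, beside 1.52% in protein-coding genes. The repeat TGTGTGT was covered at 2 of 45 places, both in SLC25A37, or 4.44%, beside 4.15% in protein-coding genes. The reversed Pumilio element ATANATGT was covered at 0 of 15 places, beside 2.72% in protein-coding genes, and the C-rich CCTCCC at 0 of 47, beside 0.113%. Of the sites that match microRNA seeds, 0 of 2 for miR-101 (GTACTGT), 0 of 5 for miR-92 (GTGCAAT) and 0 of 14 for miR-17 (GCACTTT) were covered, beside 6.94%, 4.81% and 2.61% in protein-coding genes. At so few places these counts cannot be told from those shares.

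In total 42 of the 137 carrier regions found in both libraries lay in the 3′ UTR, 70 in the CDS, 14 in the 5′ UTR, 8 in introns and 3 in non-coding exons. Those in the 3′ UTR belonged to 21 genes, and 6 of them had at least 10 reads in both libraries. Apart from SLC25A36 and SLC25A3, the strongest were in SLC25A39 and SLC25A38. SLC25A39, a mitochondrial glutathione carrier, had 24 and 22 reads at a summit 277 nt after the stop codon. Of all SLC25A39 reads, 54.8% and 43.1% lay in the CDS and 35.6% and 40.3% in the 3′ UTR. SLC25A38, a glycine carrier needed for haem synthesis in red cell precursors, had 17 and 22 reads at a summit 479 nt after the stop codon. The 29 nt around these summits and that of SLC25A3 are shown as the leading 3′ UTR sites, with the summit in capitals, and none holds TGTANAT.
SLC25A3, 3′ UTR, plus strand, chr12:98601531-98601559: agatcaaagcaaATGTggactgaatctgc
SLC25A39, 3′ UTR, minus strand, chr17:44319710-44319738: tttccctgtgttTGCTgtagctgggcatg
SLC25A38, 3′ UTR, plus strand, chr3:39396985-39397013: gactgaggtgatGGTAggatgaggaggaa

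SLC25A22, SLC25A36 and SLC25A38 each had 4 such 3′ UTR regions, and SLC25A24, a calcium-regulated carrier of ATP-Mg and phosphate, had 3. SLC25A11, SLC25A29, SLC25A30, SLC25A33, SLC25A37, SLC25A39, SLC25A40, SLC25A44 and SLC25A46 had 2 each. SLC25A1, SLC25A3, SLC25A10, SLC25A17, SLC25A23, SLC25A25 and SLC25A35 had 1 each. The regions of SLC25A40 and SLC25A44, a carrier of branched-chain amino acids, reached 12 and 10 reads and 11 and 10 reads. In SLC25A46, a carrier relative of the outer membrane, and in SLC25A35 the strongest had 7 and 4 and 3 and 3 reads. Summits of the 2 libraries lay a median of 4 nt apart in these regions. Of the carriers' 3′ UTR peaks found in both libraries, 15% in replicate 1 and 16.7% in replicate 2 lay within 150 nt of the transcript end, beside 15.3% and 15.4% in protein-coding genes.

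**Figure D4:**
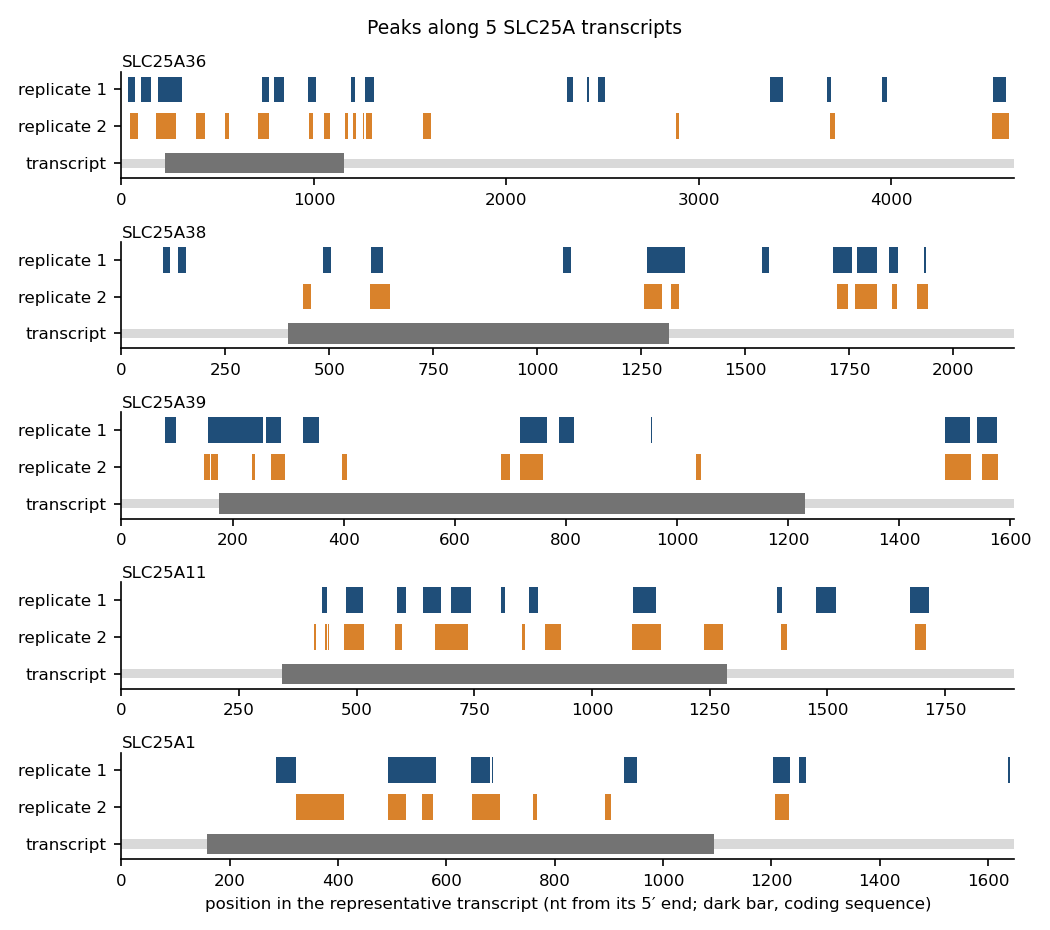
Peaks along the representative transcripts of 5 carriers, with position from the 5′ end on the x axis; blue bars are peaks of replicate 1, orange bars peaks of replicate 2, the grey line is the transcript and its dark part the CDS. SLC25A36 has a peak of both libraries near its 3′ end. SLC25A38 and SLC25A39 have peaks of both libraries in the 3′ UTR and in the CDS, and most bars of SLC25A11 and SLC25A1 lie in the CDS.

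Over the whole family, 51.1% ± 2.08 of summits lay in the CDS (SD, n = 2), beside 56.4% ± 1.64 in protein-coding genes. In the 3′ UTR lay 32.4% ± 1.28, beside 25.8% ± 0.589, and in the 5′ UTR 8.41% ± 0.400, beside 7.93% ± 0.00133. Compared with an even spread of each gene's exonic summits over its exons, CDS summits were 1.52 ± 0.0854 times as frequent, beside 1.48 ± 0.0191, and 3′ UTR summits 0.75 ± 0.0554 times, beside 0.646 ± 0.0203. By reads the CDS held 64.0% ± 1.25, beside 57.5% ± 1.23 in protein-coding genes. The 3′ UTR held 23.57% ± 2.04 of reads, beside 23.65% ± 0.435. The carriers' CDS share was thus lower than that of protein-coding genes by summits and higher by reads. Without SLC25A5, SLC25A3 and SLC25A6 the CDS held 47.0% ± 2.29 of the carriers' reads, and the 3′ UTR 37.3% ± 3.13. The family total therefore rested on those 3 genes.

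Counted gene by gene, the median carrier with at least 10 reads in each library had 27.7% ± 4.64 of its reads in the 3′ UTR. The genes of the mitochondrial ribosome (MRPL and MRPS) had 9.60% ± 3.72 and the NDUF genes, which encode complex I subunits and their assembly factors, 6.55% ± 0.168. Other SLC genes, mostly transporters of other membranes, had 36.8% ± 2.35, and all protein-coding genes 21.3% ± 0.641. The carriers thus lay between other transporters and the other mitochondrial groups, in both libraries. Their median 3′ UTR length was 1204 nt, against 398 nt for the ribosomal genes, 196 nt for the NDUF genes, 1592 nt for the other SLC genes and 1114 nt for all protein-coding genes, so the groups ran in the same order by 3′ UTR length. The part of length in the read shares was not tested. A peak found in both libraries was present in 33 of 48 carriers, 78 of 78 mitochondrial ribosomal genes, 45 of 48 NDUF genes and 126 of 326 other SLC genes.

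Within the family, the 3′ UTR share of reads followed the share of annotated exonic length in the 3′ UTR only weakly, with a Spearman rho of 0.26 and a Pearson r of 0.28 across 27 genes, given as a description. The 3′ UTR held a smaller share of reads than of length in both libraries in 18 of the 27 genes and a larger share in 5. The same count was not made over all protein-coding genes, whose 3′ UTR summits were also below an even spread, at 0.646 ± 0.0203 times. The length share pools all coding transcripts of a gene and counts the 3′ UTR first. For SLC25A3 it was 73.4%, although its representative transcript has 469 of 1678 nt there.

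**Figure D5:**
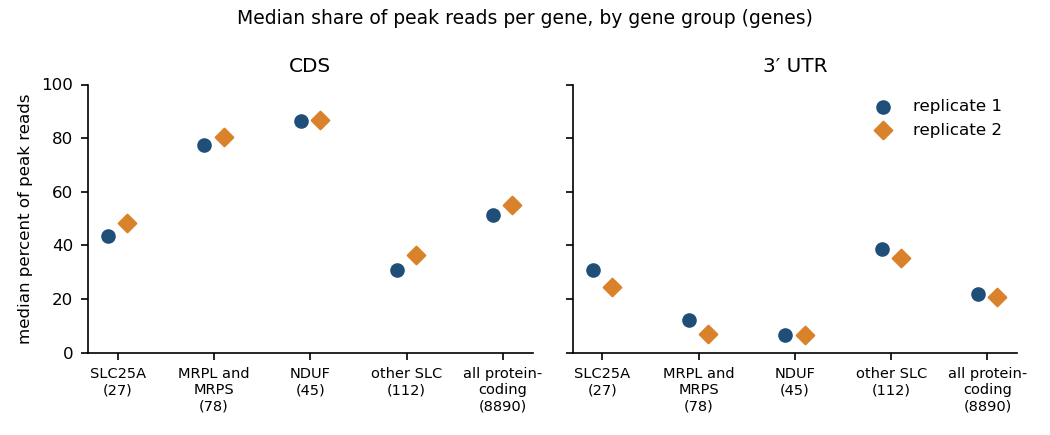
Median percent of a gene's peak reads in the CDS (left) and in the 3′ UTR (right) for carriers, mitochondrial ribosomal genes, NDUF genes, other SLC genes and all protein-coding genes with at least 10 reads in each library; circles are replicate 1, diamonds replicate 2, and gene numbers stand in brackets. The carriers lie at 31.0% and 24.4% in the 3′ UTR panel, below the other SLC genes and above both other mitochondrial groups.

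Coverage of the CDS was thin outside the leading genes. In the median carrier with a peak, 1.92% of the CDS lay under peaks of both libraries, beside 1.12% in protein-coding genes, and among genes with at least 10 reads in each library the values were 4.0% and 4.04%. The codons of the carrier signature (proline, any residue, aspartate or glutamate, 2 residues of any kind, lysine or arginine) were found in 44 of the 48 members, and 27 members had exactly 3 of them. Of 96 such motifs in carriers with a peak, 2, or 2.08% (exact 95% binomial interval 0.253 to 7.32), lay whole under peaks of both libraries, 1 in SLC25A3 and 1 in SLC25A6. Of all in-frame windows of the same 18 nt in these coding sequences, 2.50% did so.

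Some carriers had reads that other annotated genes also claim. All peaks of SLC25A51, which carries NAD, were intronic and listed as well under AL138752.2, and its reads were 10 and 14. SLC25A29 and SLC25A33, a carrier of pyrimidine nucleotides, had 2 and 1 such peaks in replicate 2, shared with AL157871.6 and AL954705.1. The intronic region of SLC25A43 lay on the small nuclear RNA entry RNU1-67P. SLC25A53 had 21 and 35 reads, with 0 in its CDS and 0 in its 3′ UTR.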

How the data were processed

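Per the labels, cytoplasmic RNA of doxycycline-treated HEK293T cells was sequenced in 2 libraries. The submitters' processing notes name cutadapt 4.2, UMI-tools 1.1.4, STAR 2.7.11 and GRCh38. CLIPper peaks were called by the authors for each library separately, as the deposited file names say. The CLIPper version, like its annotation, is not given in the sources used here. Deposited p-values, with no adjustment stated, were at most 0.0446 for the carriers. The read number in each peak name is a deposited whole-number count, at least 3, and the deposited summit is the thick interval.

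Gene IDs were matched to GENCODE 29 without their version (19811 of 20048 matched), and the Y copy of SLC25A6 was left out. Summits were assigned to the 3′ UTR, CDS, 5′ UTR, non-coding exon or intron, in that order. Sequences came from GENCODE 29 transcripts, 1 representative transcript per gene. No test across genes was run. Intervals are exact binomial and cover counting error only. The overlap and region steps were tested on simulated data. The tools were Biopython 1.88, matplotlib 3.10.9, numpy 2.4.6, scipy 1.17.1 and pandas 2.3.3 under Python 3.11.15.

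The replicate numbers are those of the sample titles; the library names carry other numbers. The members and lists were chosen with earlier results of these data known, and the grouping by substrate after the files had been seen. Named are the 12 members with the most reads, those with a 3′ UTR peak found in both libraries, the 5 with the highest 3′ UTR share, those without peaks or with peaks listed under other genes, and the 5 genes with the most reads of the import list and of carriers with other symbols. Others were named after their values were seen. 1 member and 1 stretch of sequence are not reported here. Alternatives were a p-value of at most 1e-05, at least 10 reads, an overlap of at least 50% of the narrower peak, leaving out peaks listed under several genes, the longest CDS, another region order and leaving out each replicate.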

Additional observations from a re-analysis of the deposited data

How the results depend on the processing

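Of 49 alternative values, 30 stayed within the spread between the libraries, or within 1.5 times for counts, and 19 did not. The stricter peak lists account for most of these. The 30 are no measure of stability, since some could not have moved. With 2 libraries, the value of either one always lies within their spread, so leaving out a replicate could not exceed it. With peaks of a deposited p-value at or under 1e-05, 16 members had a peak found in both libraries and 8 had one in the 3′ UTR. In those lists 68.1% of carrier peaks were found in both libraries, 64.6% of summits lay in the CDS, the ratio of CDS summits to an even spread was 1.76 and the carriers held 0.218% of protein-coding peak reads. With peaks of at least 10 reads these values were 11 members, 6 members, 68.2%, 68.3%, 1.80 and 0.222%. Under both limits 1 signature motif lay under peaks of both libraries and the median covered CDS was 0%. Leaving out peaks listed under several genes gave the carriers 0.256% of reads. Without the 3 members with the most reads, the CDS held 47.0% of reads. The count of covered Pumilio elements stayed at 0. Runs that only take peaks away could not have raised it, and only the run with the longest CDS could have. Leaving out either replicate gave 0.248% to 0.252% of reads, 49.6% to 52.5% of summits in the CDS, 63.1% to 64.9% of reads in the CDS and ratios of 1.46 to 1.58; values that need both libraries could not be had from 1. No paired analysis was possible because there was only 1 group. Peaks of 3 to 4 reads, 95 in replicate 1 and 110 in replicate 2, set the limit of what recurs, and total sequencing depth is unknown.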

Other observations

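The machinery that imports carriers also had peaks throughout. All 16 genes of the import list had a peak found in both libraries, beside 50.5% of protein-coding genes, and 11 of the 16 had one in the 3′ UTR, beside 28.5%. TOMM20, an import receptor of the outer membrane, led with 433 and 492 reads in replicates 1 and 2, and its 3′ UTR held 53.6% and 43.9% of them. TOMM6, TOMM5 and TOMM7, small subunits of the TOM complex, had 180 and 175, 178 and 156, and 168 and 132 reads. TOMM40, the channel, had 118 and 174 reads, with 64.4% and 50% in the 3′ UTR. Of the carrier relatives with other symbols, UCP2, an uncoupling protein relative, had 129 and 185 reads, MTCH2, an outer membrane insertase, 143 and 133, and MTCH1 86 and 73. UCP1 and UCP3 had no peak.

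Peaks were also listed under pseudogene entries of the carriers. Of 40 such entries, 14 had a peak, with 302 reads in replicate 1 and 300 in replicate 2. Copies of SLC25A5 held 221 and 214 of these, in 8 of 9 entries, beside 442 and 472 reads on SLC25A5 itself. Copies of SLC25A6 held 40 and 36 reads, those of SLC25A3 21 and 26 and that of SLC25A38 12 and 11. From which gene these reads came was not tested.

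At 8 splice junctions of 6 carriers, regions found in both libraries ended within 3 nt of the exon edge on both sides. The genes were SLC25A1, SLC25A3, SLC25A5, SLC25A6, SLC25A11 and SLC25A36. Such junctions were not counted in other protein-coding genes, so no share stands beside this count. Regions were merged by position in the genome, so a stretch that runs across a junction would count as separate regions in the numbers of regions given above.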
